A study of Mus musculus with 6 samples.

Results

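Genes that mark lipid-associated macrophages, the TREM2-dependent state of recruited macrophages that clear lipid and debris, were examined in the injured quadriceps muscle of mice. The 10 members were Trem2, Gpnmb, Cd9, Spp1, Fabp5, Lgals3, Apoe, Cd63, Cd68 and Lpl2, taken by symbol from the deposited table, and 9 of them were among its 14015 genes with a symbol. Lpl2 was not listed. The lipoprotein lipase gene Lpl was listed, and is described with the related genes rather than as a member.

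The muscle came from 3 WT mice and 3 mice labelled GATA-1 mutant, the ΔdblGATA strain, in which a GATA site of the Gata1 promoter is deleted so that eosinophils do not form. All 6 had volumetric muscle loss, the surgical removal of a part of the quadriceps, without an implant, and muscle was taken on day 7. According to the methods, WT animals were adult female C57BL/6 mice, and frozen quadriceps was sequenced as a whole, so the libraries hold fibres, stroma and infiltrating leukocytes together. Gata1 was not among the genes listed. What could be read for each gene was 1 level, the authors' mean log2 CPM (read counts scaled to the size of the library) over the libraries of their fit. The table does not state how many libraries that fit held. No value per mouse was at hand, so no SD, no depth per library and no new test between WT and ΔdblGATA mice can be given, and the authors' own columns comparing the genotypes were not used.

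Macrophages that engulf dying cells and myelin or fat take on a large load of lipid. TREM2, a surface receptor for lipids and lipoproteins, signals through the adaptor TYROBP and sustains a program of lipid uptake, lysosomal digestion and efflux. In injured skeletal muscle, macrophages of this kind gather around necrotic fibres and are known for secreted factors such as osteopontin. Most of the members are also made by other cells: APOE by many stromal cells, CD63 and CD9 by nearly all tissues, and FABP5 by endothelium and fat.

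All 9 listed members were above the median gene. Because longer transcripts yield more reads, levels of different genes are compared here per length, as log2 CPM per kilobase of the longest coding transcript. On that scale the median of the members was 5.61, against 2.28 over the genes with a known length, and 9 of the 9 were above the upper quartile of 3.78. In log2 CPM, without division by length, 7 of the 9 were above the upper quartile of 5.36, and Trem2 at 4.42 was little above the median of 4.03. They ranged from Gpnmb at 4.24 to Apoe at 9.62 log2 CPM per kilobase, a 41.6-fold span. With the median or the shortest coding transcript as the length, Trem2 was lowest and the span was 68.1-fold or 120-fold. Per kilobase of the longest transcript, the largest step in the order was that from Cd63 down to Spp1.

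**Figure D1:**
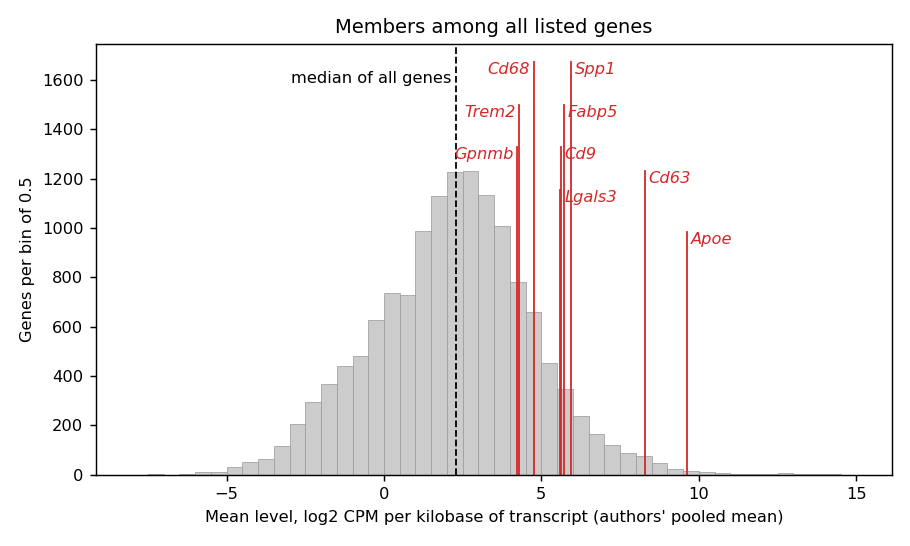
Grey bars count genes by mean level, in log2 CPM per kilobase of transcript, and each red line is 1 member. All members lie to the right of the dashed median of 2.28, with Apoe at 9.62 and Cd63 at 8.28 apart from the others. Each level is the authors' pooled mean and has no error bar.

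As a feature the choice of members did not use, the promoter windows of 8 members in RefSeq (GRCm38.p6), 11 windows in all, were searched on both strands for 4 short motifs. Each window runs from 250 bases before a start site to 50 after it. The pattern TGANTCA, where N is any base, takes in the AP-1 sites TGACTCA and TGAGTCA. It was found in 1 window each of Cd68, Gpnmb and Trem2, against 7.8% of all 32851 windows. The match in Trem2 was TGAATCA, which is neither of these AP-1 sites. These 3 genes were singled out after the levels and matches were seen. Their promoters are shown to place the motif, in capitals, from 160 bases before the start site to 20 after it.
Trem2, chr17:48346241-48346420 (plus strand): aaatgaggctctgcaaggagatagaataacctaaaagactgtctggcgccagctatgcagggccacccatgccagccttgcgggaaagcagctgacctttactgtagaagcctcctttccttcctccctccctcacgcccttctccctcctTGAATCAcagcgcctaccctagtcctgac
Gpnmb, chr6:49036358-49036537 (plus strand): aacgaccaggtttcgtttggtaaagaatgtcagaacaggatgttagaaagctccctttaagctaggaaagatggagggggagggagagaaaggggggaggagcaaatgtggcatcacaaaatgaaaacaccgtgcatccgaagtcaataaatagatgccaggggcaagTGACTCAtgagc
Cd68, chr11:69666151-69666330 (minus strand): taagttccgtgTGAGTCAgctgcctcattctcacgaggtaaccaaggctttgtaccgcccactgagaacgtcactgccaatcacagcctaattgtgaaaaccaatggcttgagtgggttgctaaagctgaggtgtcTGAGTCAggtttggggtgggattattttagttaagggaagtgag
Counted from the start site as base 1, the match began at base -9 in Trem2 and at base 9 in Gpnmb, and Cd68 had 2 matches, at bases -149 and -24. The MITF and TFEB motif CACGTG was in 0 of the 11 windows, and in 7.2% of all. The PU.1 motif GAGGAAGT was in 1 window, of Spp1, and in 3.2% of all, and the TATA motif TATAAA in 1 window each of Apoe and Spp1, and in 13.6% of all. The TATAAA matches began at bases -100 and -96 in Apoe and at base -211 in Spp1. That window of Apoe was not the one at its outermost start site. A match describes these letters only, and Fabp5 and Lpl2 were not searched.

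The receptor gene of the program, Trem2, had a mean of 4.42 log2 CPM, or 21.4 CPM, and 4.30 log2 CPM per kilobase, at the 81.7th percentile of genes per kilobase. Without regard to length it was only at the 57.7th percentile, since its transcript of 1088 nt is short against a median of 3137.5 nt. Its adaptor Tyrobp was at 4.13 log2 CPM per kilobase, so that receptor and adaptor were listed at levels 1.12-fold apart per kilobase, and at 4.42 and 3.39 log2 CPM. Hcst, which encodes DAP10, the other adaptor of this receptor class, was at -0.31 log2 CPM per kilobase, 24.4-fold below Trem2. In log2 CPM it was at -1.49, only at the 1.5th percentile of genes, a low level at which a fold is uncertain.

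Genes acting downstream of the adaptor were lower per kilobase. In log2 CPM the order turned for some of them, with Syk at 4.38, Inpp5d at 3.83 and Pik3ap1 at 3.61 above Tyrobp at 3.39. The kinase gene Syk was at 1.96 log2 CPM per kilobase. The adaptor gene Blnk was at 1.76, and the exchange factor gene Vav1 at 1.55. Inpp5d, the gene of the inhibitory phosphatase SHIP1, was at 1.53, and the PI3-kinase adaptor gene Pik3ap1 was at 1.45. Plcg2, which encodes the phospholipase of this pathway, was lowest of these signalling enzymes and adaptors at 0.49 log2 CPM per kilobase. Of the 8 adaptor and signalling genes, 1 (Tyrobp) was above the median of all genes per kilobase, against 9 of the 9 members, while in log2 CPM Syk was the one above it.

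Trem2 was the highest of the 3 listed genes of its family. The relatives Treml4 and Treml2 were listed at -2.25 and -2.63 log2 CPM per kilobase. Trem1, Trem3 and Treml1 were not listed.

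The members Apoe, Spp1 and Lgals3, whose products are secreted, lay between 5.60 and 9.62 log2 CPM per kilobase. Apoe, the apolipoprotein that carries lipid out of the cell and is itself bound by TREM2, had a mean of 10.12 log2 CPM (1110 CPM), and was number 70 of the 14015 genes in level. Spp1, which encodes osteopontin, a matrix cytokine of injury macrophages, was at 6.54 log2 CPM (93.0 CPM) and 5.95 per kilobase. Lgals3, which encodes galectin-3, a lectin that marks damaged lysosomes and is secreted by phagocytes, was at 6.10 log2 CPM (68.8 CPM) and 5.60 per kilobase.

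Of the receptors for APOE described here, Lrp1, a large endocytic receptor, was highest at 4.40 log2 CPM per kilobase, and Apoe was 37.5-fold above it. That fold rests largely on length, since Lrp1 has a transcript of 14888 nt: in log2 CPM, Apoe was at 10.12 and Lrp1 at 8.29. Vldlr was at 3.83 and Sorl1, a sorting receptor, at 2.32. Lrp8 was at -3.00. Among the 8 receptor genes for osteopontin, Itgb1, the shared integrin β1 chain, was highest at 6.66 log2 CPM per kilobase. Itgb5, Itga5, Cd44 and Itgav followed at 4.11, 3.61, 3.25 and 3.08. Itga9 was at 1.85, Itgb3 at 1.49 and Itga4 at 1.45. Spp1 was 6.49-fold above Cd44, and below Itgb1 alone in this list. In log2 CPM, Spp1 was at 6.54 and Cd44, with a transcript of 5614 nt, at 5.74.

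The genes of lysosomal and vesicle membrane proteins were also read one by one. Cd63, a tetraspanin of late endosomes and exosomes, had a mean of 8.43 log2 CPM (345 CPM) and 8.28 per kilobase, at the 98.9th percentile. Cd9, a tetraspanin of the cell surface, was 6.37-fold lower, at 5.61 log2 CPM per kilobase (5.91 log2 CPM). Cd68, a lysosomal glycoprotein of macrophages, was at 5.05 log2 CPM (33.2 CPM) and 4.75 per kilobase.

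Gpnmb, a lysosomal and surface glycoprotein induced in lipid-loaded macrophages, was the member whose place depended most on length. Its mean of 6.13 log2 CPM (70.2 CPM) put it below Apoe, Cd63 and Spp1 and above the other members. With a transcript of 3701 nt, the longest of the 9, it was last at 4.24 per kilobase. Its step to Trem2, next in the order, was only 0.05 on the log2 scale. No spread between mice was at hand to say which steps of this order exceed it. The step from Spp1 to Lgals3 across 4 members was 0.35, a 1.27-fold difference. With the median length these 4 (Spp1, Fabp5, Cd9 and Lgals3) spread over 1.64-fold and with the shortest over 6.71-fold, so that their closeness depends on the length chosen. Cd63 was 5.04-fold above Spp1 per kilobase of the longest transcript. With the shortest, Cd63 was at 8.98 and Spp1 at 8.04, with Lgals3 at 8.36 between them.

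**Figure D2:**
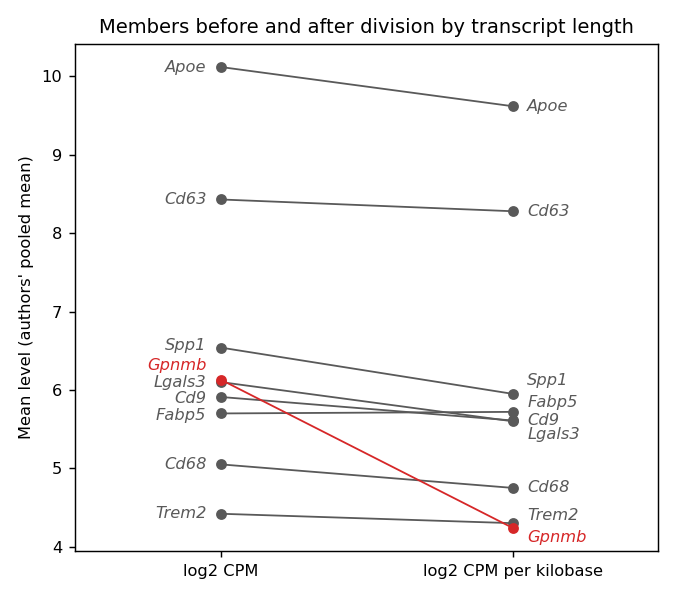
Each line joins a member's mean level in log2 CPM (left) to its level in log2 CPM per kilobase of transcript (right), both from the authors' pooled mean and without error bars. Gpnmb, in red, goes from 6.13 to 4.24, while the order of Apoe, Cd63 and Spp1 at the top is the same on both scales.

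Fabp5, which encodes a cytosolic carrier of fatty acids, was at 5.70 log2 CPM (52.0 CPM) and 5.72 per kilobase. Fabp4, the carrier of adipocytes and lipid-laden macrophages, was higher, at 9.30 log2 CPM per kilobase, and Fabp3, the carrier of muscle fibres, was 5.45-fold higher at 8.16. Fabp1, Fabp2, Fabp6 and Fabp7 were not listed, so that Fabp5 was the lowest of 3 listed carriers.

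The other families placed the members differently. Lgals1, the galectin of stroma and muscle, was 12.7-fold above Lgals3, at 9.26 log2 CPM per kilobase. Lgals9 and Lgals8 were at 3.95 and 3.84, Lgals12 was at 1.77 and Lgals4 at 1.34. Lgals2 and Lgals7 were not listed.

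Cd63 was the highest of 10 tetraspanin genes, ahead of Tspan3 at 6.67, Cd81 at 6.65 and Cd151 at 5.84 log2 CPM per kilobase. The leukocyte tetraspanins Cd53 at 3.32 and Cd37 at 0.65 were the lowest of the same list. Cd53 was still above the median of all genes of 2.28, and Cd37 was below it. Cd68 was the lowest of 3 listed LAMP family genes, below the general lysosomal markers Lamp1 at 7.55 and Lamp2 at 5.80, and Lamp3 and Lamp5 were not listed. Spp1 was far above the other listed bone matrix genes of its family, Dmp1 at -1.01 and Dspp at -2.42 log2 CPM per kilobase. Ibsp and Mepe were not listed.

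A wider set of 22 other genes of lipid-associated macrophages, not all of them genes of lipid handling and none a member, was listed in full. Its median was 4.37 log2 CPM per kilobase. Of these, 17 were above the median of all genes. The highest were Fabp4, the lysosomal proteases Ctsd at 8.76 and Ctsb at 7.56, and Lpl at 7.49, which releases fatty acids from lipoproteins. Apoe was 4.38-fold above Lpl per kilobase, and in log2 CPM the 2 were at 10.12 and 9.53. The lowest were Cd5l, a macrophage lipid regulator, at -0.05 and Apoc2, the cofactor of LPL, at -0.26 log2 CPM per kilobase. Itgax at 1.76, Abcg1 at 1.46 and Msr1 at 1.03 were the others below the median of all genes, 2.28.

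All 8 transcription factor genes chosen for lysosomal and lipid control were listed. Rxra, the nuclear receptor partner, was at 4.80 log2 CPM per kilobase, Tfeb, a regulator of lysosome formation, was at 4.75, and Nr1h2 and Nr1h3, the LXR genes, at 4.40 and 3.60. Tfe3 was at 2.66, Pparg at 1.78 and Tfec at -0.87. Mitf, a factor of the same family known to drive Gpnmb, was at 1.70, and Gpnmb was 5.82-fold above it.

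**Figure D3:**
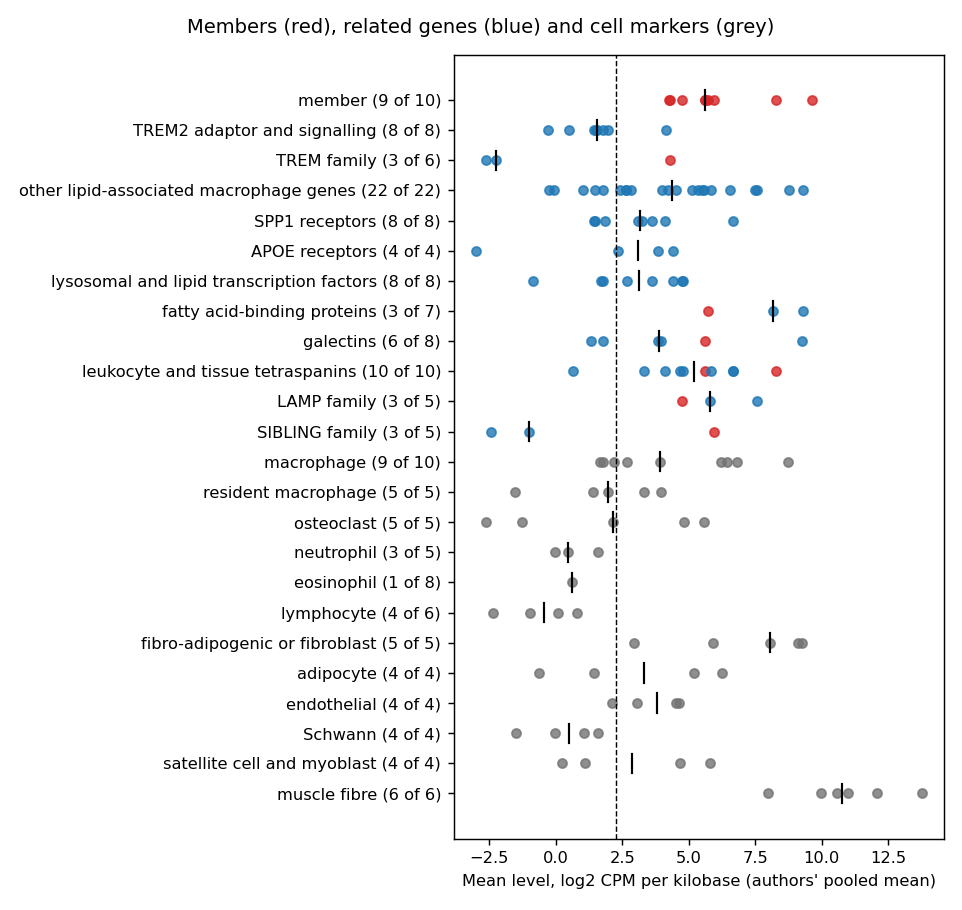
Each dot is 1 listed gene at its mean level in log2 CPM per kilobase (authors' pooled mean, no error bars), with members in red, related genes in blue and cell markers in grey; black ticks are list medians, and the dashed line is the median of all genes. Labels give how many of each list's genes were in the table. The members' median is 5.61 and that of the macrophage markers 3.92, and the marker dots overlap those of the members.

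The sample was checked against cell markers, since the members' levels sum over all cells of the muscle. In whole muscle, fewer cells of a type and less RNA per cell cannot be told apart. Of 10 macrophage markers, 9 were listed, from Mertk at 1.68 to Lyz2, the lysozyme gene, at 8.72 log2 CPM per kilobase, with a median of 3.92. Adgre1, which encodes F4/80, was not listed. Absence from the list gives no level, for this gene or for any other named here as not listed. Whether such a gene had few reads, or its row was lost in another way, was not tested. Csf1r, the receptor gene for the macrophage growth factor CSF1, was itself at 3.92, with 9 of the 9 members above it. That order rests on length, since Csf1r has a transcript of 4701 nt: in log2 CPM it was at 6.15, with 3 members (Apoe, Cd63 and Spp1) above it and 6 below. The complement genes C1qa, C1qb and C1qc, at 6.80, 6.42 and 6.22 log2 CPM per kilobase, were each above 7 of the 9 members. That count was 6 with the median and 5 with the shortest coding transcript as the length, and 6 in log2 CPM. Apoe alone exceeded Lyz2. The 5 markers of resident macrophages were all listed, from Timd4 at -1.54 to Folr2 at 3.95.

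Osteoclasts share Spp1, Gpnmb and Cd68 with macrophages. Their protease gene Ctsk, which stroma also makes, was at 5.57 log2 CPM per kilobase, while the fusion gene Dcstamp was at -2.63. Neutrophil markers were listed for 3 of 5 genes, from Csf3r at -0.04 to S100a8 at 1.57, and lymphocyte markers for 4 of 6, from Cd8a at -2.36 to Cd3d at 0.80. Of 8 eosinophil markers only Ear2 was listed, at 0.61 log2 CPM per kilobase.

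Among non-immune markers, those of muscle fibres and fibroblasts reached the highest levels. Muscle fibre genes ran from Myh2 at 7.96 to Acta1 at 13.77 log2 CPM per kilobase, and fibroblast genes from Pdgfra at 2.95 to Col3a1 at 9.27. Endothelial genes ran from Vwf at 2.13 to Pecam1 at 4.63, adipocyte genes from Plin1 at -0.63 to Adipoq at 6.23, Schwann cell genes from Sox10 at -1.50 to Mbp at 1.60, and those of satellite cells and myoblasts from Pax7 at 0.22 to Myog at 5.79. The part of these cells in the levels of the listed members, Spp1 among them, was not tested.

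Sequence shared with other genes bears on how firmly a level can be assigned. In GENCODE M21 transcripts, Apoe, Lgals3, Cd68 and Trem2 shared 0 of their 31-base words with any other gene. For Gpnmb the share was 0.8%. Spp1 shared 10.2% and Cd9 22.0% of their words, Fabp5 33.1% with 5 other genes, and Cd63 48.1%, all with its pseudogene Cd63-ps. That pseudogene was not listed in the table, nor were Gm42793, Gm6166 and Gm26728, the genes sharing most words with Spp1, Fabp5 and Cd9. The levels of Cd63, Fabp5, Cd9 and Spp1 are therefore less certain than those of the other 5 members.

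The genes of the members lie on 8 chromosomes, and only Cd9 and Gpnmb share one, chromosome 6. Their longest coding transcripts ran from 987 nt (Fabp5) to 3701 nt (Gpnmb), with a median of 1230 nt. Coding sequence made up from 41.0% of the transcript in Fabp5 to 79.5% in Cd68.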

How the data were processed

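Bulk RNA sequencing of poly(A) RNA from injured quadriceps covered 3 WT and 3 GATA-1 mutant mice. The authors used kallisto to pseudoalign the reads of both ends, assigned transcripts to genes, removed genes that did not exceed 1 CPM in 3 or more samples, and took logarithms with TMM normalization. The submitters' processing notes name GRCm39 (mm39). The deposited log2 values used here are the authors' mean log2 CPM of each gene over the libraries of their limma fit, whose number the table does not state. The lowest mean was -4.08 log2 CPM, and 1198 genes had a mean below 1 CPM. Whether libraries beyond these mice entered the fit, or the filter differed from that described, was not tested. The other 5 numeric columns of the deposited table hold the authors' own comparison of the genotypes (log2 fold change, test statistics and p-values) and were not used, so no new test was made. Of 14016 rows, 1 has no symbol.

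Lengths were the longest coding transcript (or longest transcript) in GENCODE M21, on GRCm38 rather than the authors' build, for 13946 genes (99.5%), 488 of them through another symbol. A level per kilobase is the mean log2 CPM minus log2 of that length in kilobases, and a percentile is the percent of genes at or below a level. The arithmetic of the levels per kilobase and of the percentiles was checked on simulated data (Python 3.11.15, pandas 2.3.3). That check does not cover the choice of length or the matching of symbols. Members and lists were chosen with earlier results of these data known. Named are all listed members, all listed genes of lists with up to 8 of them, otherwise the 4 highest and 2 lowest, and the highest and lowest gene of each marker list. Csf1r and the C1q genes were added as points of comparison after their values were seen. Itgax, Abcg1 and Msr1 were also added after their values were seen. Of the list of APOE receptors, 1 gene is not reported here. Depth per sample is unknown.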

Additional observations from a re-analysis of the deposited data

How the results depend on the processing

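No paired analysis was possible because the levels are pooled over mice and no test was made. For the same reason no mouse could be left out. As no spread between mice was at hand, a level was taken as moved when it changed by 1.5-fold or more, and a percentile when it changed by 10 points or more. With protein-coding genes only as the background, or genes of at least 1 log2 CPM, 0 of the 9 members' percentiles moved on either scale, by at most 0.7 and 7.6 points. The members' median per kilobase stayed within 0.11 with the median or the shortest coding transcript as the length. The median of all genes with those lengths is not given here, so this does not show the members' place among all genes. With the median length, Apoe was at 10.41 and Lgals3 at 6.32 log2 CPM per kilobase, and the medians of the TREM family (-1.19), the osteopontin receptors (3.96), the reported APOE receptors (3.72) and the LAMP family (6.53) moved, as fewer bases are divided by. With the shortest transcript, Apoe (11.25), Cd63 (8.98), Spp1 (8.04), Lgals3 (8.36) and Gpnmb (4.85) moved. Without division by length, 6 of 9 members changed place, with Trem2 last in place of Gpnmb. The span of the members was 41.6-fold per kilobase of the longest transcript, and 51.9-fold without division by length, 68.1-fold with the median and 120-fold with the shortest length. The number of members above Csf1r fell from 9 to 3, 6 and 4 under those settings. These counts and spans were added after the data had been seen.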
